A study of Mus musculus with 24 samples.

Results

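The genes described here encode collagens, other matrix proteins and contractile proteins that are textbook products of fibroblasts, osteoblasts and smooth muscle cells. They were chosen by name as a set of 39 symbols, and each of them had a row among the 54532 genes of the count table. Their levels were followed in bone marrow macrophages and in the osteoclasts formed from them, that is, in cultures named for a different lineage. The question put to the levels was in which libraries the genes were present, and what markers of stromal cells showed beside them.

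Marrow flushed from mouse long bones was expanded on petri dishes and seeded in wells for osteoclast differentiation. Every cell, control or not, had the Runx1 transgene in the Rosa26 gene. The LysM-Cre;Rosa26-Runx1tg/+ cells also had Cre driven from the lysozyme 2 gene, whose promoter is active in myeloid cells, and are labelled Runx1 overexpression (OE-labelled cells in what follows). The control cells, Rosa26-Runx1tg/+, had no Cre and are labelled wild type control. Cells of each genotype were kept in M-CSF, the macrophage growth factor, with or without RANKL, the cytokine that turns macrophages into osteoclasts, and RNA was taken on day 5 and on day 3. The 8 groups held 3 libraries each, numbered 1 to 3, and no label says what a library number stands for. Sex and age of the animals are not labelled. Each p-value thus measures only the spread between these libraries, part of which may be technical.

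Fibrillar collagens are built from alpha chains that fold into a triple helix with the help of the chaperone Serpinh1, are trimmed outside the cell and are joined into fibres by lysyl oxidases. Matricellular proteins such as thrombospondins, Sparc, periostin and the CCN proteins sit in the matrix and tune how cells attach to it. In bone marrow these genes are known from fibroblast-like stromal cells, osteoblasts and the smooth muscle cells and pericytes of vessels, whereas macrophages and osteoclasts are better known for taking up and breaking down matrix.

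Promoter sequence was held for 25 of the 39 genes. The 250 bases upstream of the start annotated in RefSeq are shown for 3 genes that stand for the patterns described below. By day 5 Acta2 and Col1a2 were called higher in some comparisons, both of them under RANKL in OE-labelled cells, and Tpm2 rose with RANKL. The sequences are from RefSeq on GRCm38.p6, 5′ to 3′ on the strand of the gene, at chr19:34255374-34255623 (minus strand) for Acta2, chr6:4505368-4505617 (plus strand) for Col1a2 and chr4:43523555-43523804 (minus strand) for Tpm2. By the gene positions of the count table, the Col1a2 window lies inside the gene (4504814 to 4541544). Most of the Tpm2 window also lies inside its gene (43514711 to 43523765). Capitals mark matches, on either strand, to the motifs searched.
Acta2: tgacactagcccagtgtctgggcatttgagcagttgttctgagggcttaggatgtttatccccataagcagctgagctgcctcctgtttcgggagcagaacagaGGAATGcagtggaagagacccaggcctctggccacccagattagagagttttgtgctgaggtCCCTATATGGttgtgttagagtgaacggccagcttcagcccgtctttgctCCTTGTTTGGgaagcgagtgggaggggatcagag
Col1a2: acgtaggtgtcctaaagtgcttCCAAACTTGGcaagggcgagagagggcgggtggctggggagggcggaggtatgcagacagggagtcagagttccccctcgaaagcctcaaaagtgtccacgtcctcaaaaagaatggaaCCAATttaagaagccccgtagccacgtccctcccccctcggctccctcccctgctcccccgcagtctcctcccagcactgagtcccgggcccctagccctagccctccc
Tpm2: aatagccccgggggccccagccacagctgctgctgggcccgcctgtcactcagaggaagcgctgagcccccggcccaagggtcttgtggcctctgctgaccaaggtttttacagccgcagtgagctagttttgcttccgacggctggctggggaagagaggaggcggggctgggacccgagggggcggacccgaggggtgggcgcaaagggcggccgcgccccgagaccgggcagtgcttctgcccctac
The motifs were the CArG box bound by serum response factor, with at most 1 substitution in its core of A and T, the TEAD motif GGAATG, the RUNX motif TGTGGT, the AP-1 motif TGANTCA, the CCAAT box and TATAAA. A CArG box can hold TATAAA in its core or a CCAAT box at either end, on 1 or the other strand, and the rest of the motifs do not contain one another. In Acta2 the capitals are a GGAATG and a pair of CArG boxes, of which the nearer one ends 25 bases before the start. In Col1a2 they are a CArG box and, with its last base 105 bases before the start, a CCAAT box. Tpm2 held none of the motifs in this window. Over the 27025 promoters of the same length, a CArG box was found in 8.65%, GGAATG in 12.6%, TGTGGT in 14.2%, TGANTCA in 6.87%, CCAAT in 34.5% and TATAAA in 3504 of them. Among the 25 promoters of these genes, CArG boxes were found in 5, GGAATG in 5, TGTGGT in 1, TGANTCA in 1, CCAAT in 8 and TATAAA in 3.

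Libraries held 18975750 to 24268936 counts, apart from 1 with 36523995, number 3 of the day 5 RANKL OE-labelled group. Levels are given as counts per 1000000 counts of the scaled library (CPM), and 1 count was worth 0.0286 to 0.0542 CPM. Of the 39 genes, 38 had enough counts to be tested among 15035 genes, and Lum, the exception, had 14 counts in all, with 0 in 19 libraries. Runx1 itself was not called different between genotypes, with adjusted p = 1 at day 5 under RANKL and mean levels of 80.6 and 68.6 CPM in OE-labelled cells and control cells. Xist was under 20 counts in 4 libraries, which were number 3 of each OE-labelled group, and it had 15362 to 25053 counts in the 12 control libraries.

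The 39 genes fell into a few patterns. Most were low at day 3 in either medium and higher at day 5, with the day 5 level depending on the library number. Lox, Dcn and Tpm2 followed RANKL in every library. Timp2 and Col18a1 were at 267 to 566 and 33.1 to 424 CPM over all libraries, Thbs1 was high without RANKL, and Lum and Tagln stayed under 1 CPM in every library. Per kilobase of gene length, the highest mean levels over the 24 libraries were those of Timp2 (97.1 CPM per kb), Thbs1 (23.3), Col18a1 (21.9), Acta2 (7.18), Lox (6.26) and Col1a1 (4.39).

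**Figure D1:**
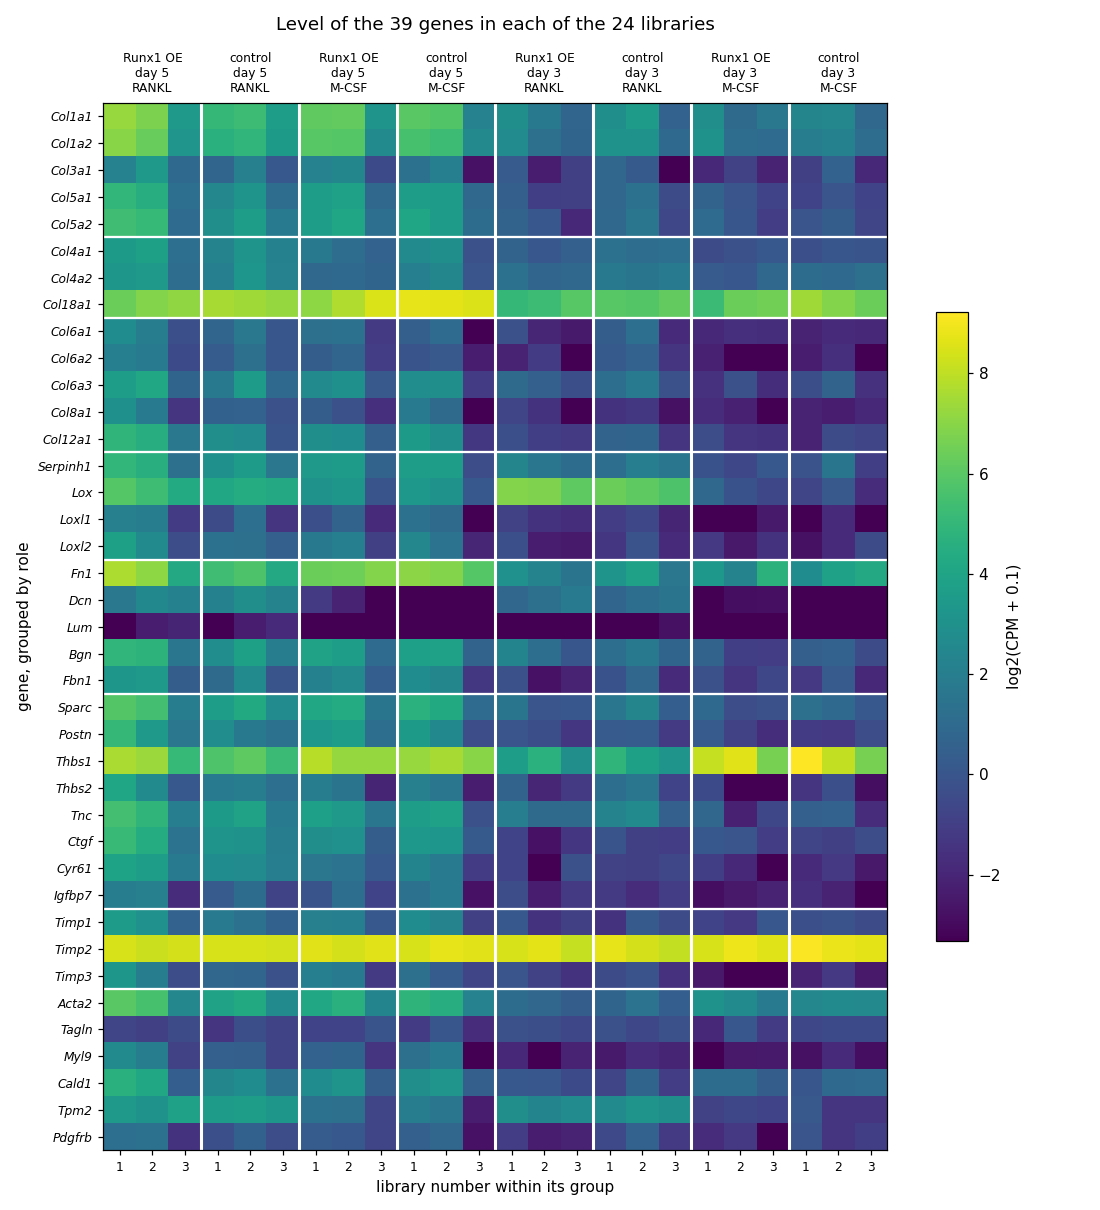
Level of each of the 39 genes, as log2(CPM + 0.1), in the 24 libraries (columns, numbered 1 to 3 within each of 8 groups; OE, labelled Runx1 overexpression), with genes (rows) grouped by role. Most rows are dark at day 3 and brighter at day 5 in numbers 1 and 2, while Timp2 is bright in every library, from 267 to 566 CPM.

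Day 5 was compared with day 3 in each medium and genotype, to follow the genes as the cultures aged. In OE-labelled cells under RANKL, 33 of the 38 tested genes rose and 0 fell (edgeR quasi-likelihood test, Benjamini-Hochberg adjusted p under 0.05), and over all genes 17.6% rose and 15.6% fell. In control cells under RANKL 7 rose and 1, Lox, fell, against 14.1% and 12.7% of all genes. In M-CSF alone, 20 rose and 0 fell in OE-labelled cells (7.17% and 7.08% of all genes), and 21 rose and 0 fell in control cells (12.2% and 11.5%). The median log2 fold change over the tested members was 3.48, 1.71, 3.30 and 2.91 in these 4 comparisons, beside -0.02, 0.00, 0.02 and 0.01 over all genes. In bulk RNA a change in the number of cells that make a transcript and a change in its amount per cell cannot be told apart.

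These counts leaned on single libraries. The count of 33 fell to 22 at the lowest when 1 library was left out, and 20 of the 33 genes were called whichever library was left out. In M-CSF alone the 20 calls of OE-labelled cells became 2 without number 2 of day 3, 4 without number 2 of day 5, 7 without number 1 of day 5, 8 without number 3 of day 3 and 12 without number 1 of day 3. The 21 calls of control cells became 6 without number 1 of day 3, 8 without number 1 of day 5, 10 without number 2 of day 5, 11 without number 3 of day 3 and 12 without number 2 of day 3. Under RANKL in control cells the 8 calls became 3 without number 1 of day 3, 5 without number 1 of day 5 and 4 without number 2 of day 5, and the fall of Lox was lost in 5 of the 6 such fits (-1.65 to -1.89). Without the 8 libraries of number 3, a choice made after the values were seen, the numbers of genes that rose were 33, 24, 32 and 32 in the order above, with 1, 1, 0 and 1 that fell. Over all 15183 genes of that fit, the shares that rose were 17.3%, 13.2%, 9.53% and 15.1%, and the shares that fell lay between 6.99% and 15.5%.

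**Figure D2:**
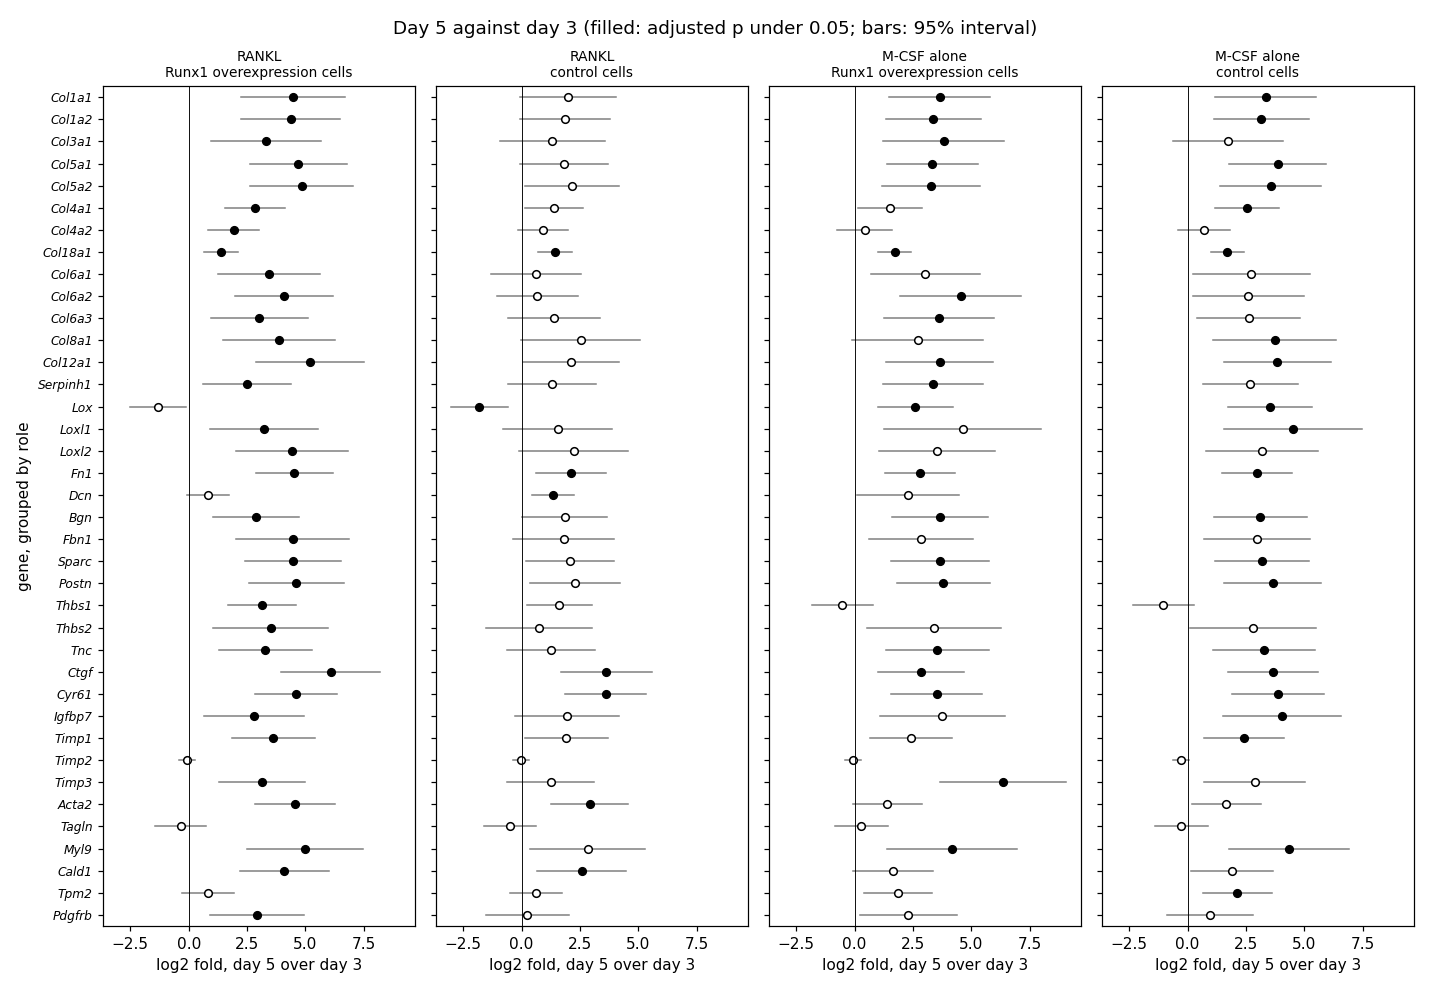
Log2 fold change of day 5 over day 3 (horizontal axis) for the 38 tested genes (rows, grouped by role) in the 4 combinations of medium and genotype, with 95% intervals as bars and filled points for adjusted p under 0.05. Dcn has no point in control cells in M-CSF alone, where all libraries had 0 counts. Lox lies left of 0 under RANKL and right of 0 in M-CSF alone.

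Col1a1 and Col1a2 encode the chains of type I collagen, the main fibre of bone and tendon. Col1a1 (chromosome 11, positions 94936224 to 94953042 on the plus strand, GRCm38) stood at 156, 106 and 10.9 CPM in numbers 1, 2 and 3 at day 5 under RANKL in OE-labelled cells, and at 32.1, 38.3 and 12.9 CPM in control cells. In M-CSF alone at day 5 it stood at 70.5, 73.2 and 8.74 CPM in OE-labelled cells and at 65.3, 55.4 and 4.69 CPM in control cells. The 12 libraries of day 3 held 1.44 to 12.2 CPM. Number 3 was thus the low library of each day 5 group, and 3 of these 4 libraries lay within the range of day 3. The rise by day 5 under RANKL was 4.46 ± 1.07 on the log2 scale in OE-labelled cells (SE, adjusted p = 0.00348) and 1.98 ± 0.98 in control cells, where it was not called (adjusted p = 0.14).

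Col1a2 ran alongside. Its day 5 levels under RANKL were 129, 77.8 and 9.31 CPM in OE-labelled cells and 24.9, 30.4 and 11.3 CPM in control cells, and in M-CSF alone 62.8, 60.03 and 6.24 CPM in OE-labelled cells and 47.8, 39.1 and 5.88 CPM in control cells. At day 3 it lay at 1.57 to 8.41 CPM, so that its day 5 rise under RANKL in OE-labelled cells was 4.36 ± 1.01 (log2, SE, adjusted p = 0.00275). The ratio of Col1a1 to Col1a2 per kilobase was 1.51 to 2.69 over the 12 libraries of day 5, with a median of 2.35, and 1.49 to 3.00 over those of day 3, with a median of 2.06. The ratio overlapped between days although the levels differed.

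Col5a1 and Col5a2, the chains of the minor fibrillar collagen that nucleates type I fibres, had the same profile at lower CPM. Col5a2 stood at 40.7, 33.5 and 1.97 CPM under RANKL at day 5 in OE-labelled cells and at 7.27, 12.5 and 3.58 CPM in control cells. Col5a1 stood at 31.4, 22.7 and 2.26 CPM in OE-labelled cells and 5.41, 8.94 and 2.13 CPM in control cells. At day 3 both were under 3 CPM in all 12 libraries. Their rises by day 5 under RANKL were 4.85 ± 1.06 for Col5a2 and 4.70 ± 0.99 for Col5a1 in OE-labelled cells (log2, SE, adjusted p = 0.00175 and 0.00126). Col3a1, the fibrillar collagen of soft tissue and vessel walls, reached only 4.54, 10.7 and 1.83 CPM in that group against 1.58, 4.38 and 0.998 CPM in control cells, and 4.60, 5.37 and 0.614 against 2.49, 4.12 and 0.0515 CPM in M-CSF alone. Its highest library was number 2 in 4 of 4 day 5 groups.

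**Figure D3:**
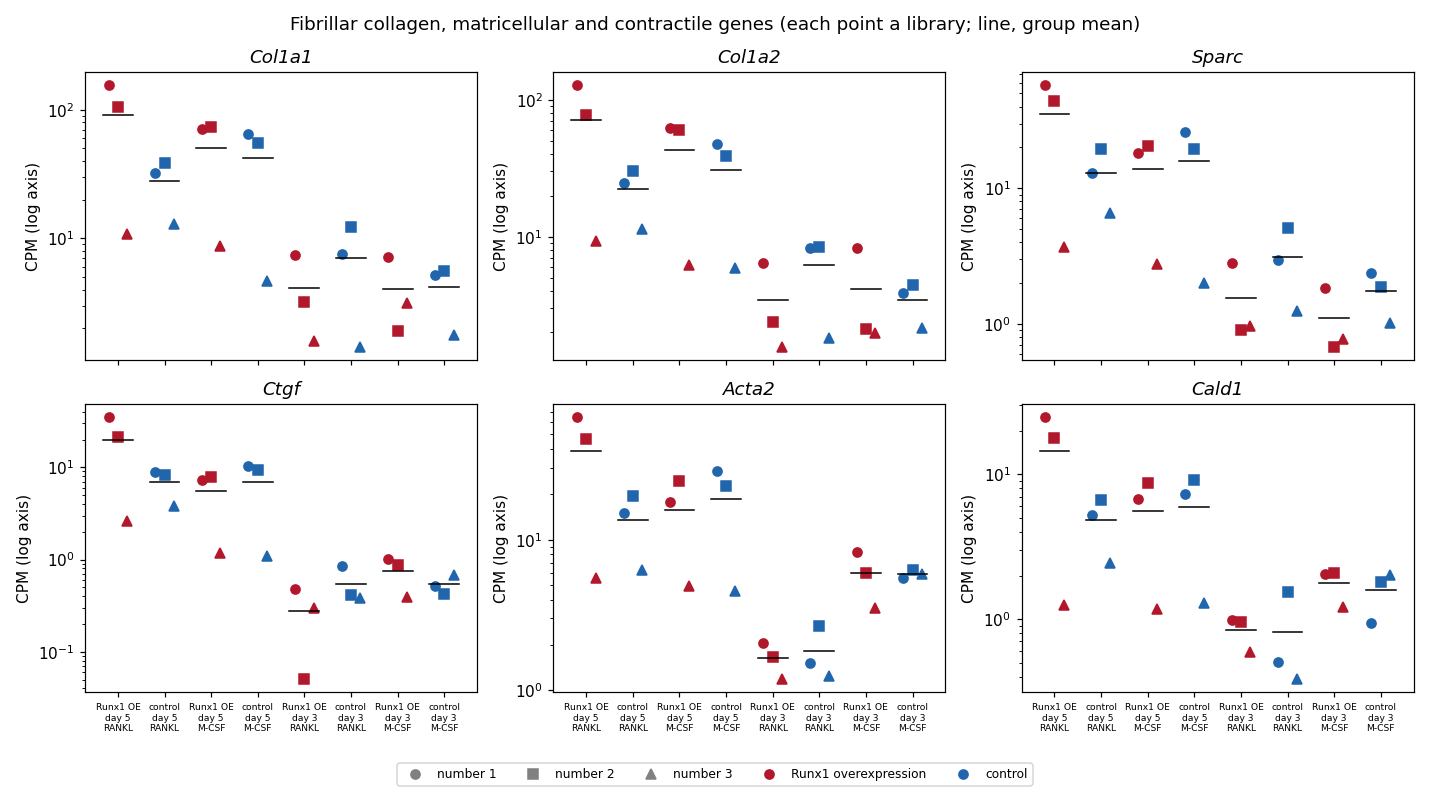
Levels in CPM (log axes) of Col1a1, Col1a2, Sparc, Ctgf, Acta2 and Cald1 in every library, by group (red, labelled Runx1 overexpression; blue, control; circle, square and triangle, numbers 1, 2 and 3; line, group mean). The triangles of day 5 lie below the circles and squares of their group in each panel, as for Acta2 with 64.8, 46.6 and 5.57 CPM in the group at the far left.

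Among collagens of other kinds, Col4a1 and Col4a2, the chains of basement membrane collagen, were called for RANKL at day 5 in OE-labelled cells alone among the 4 RANKL comparisons. Col4a1 stood at 11.4, 14.1 and 2.26 CPM at day 5 under RANKL in OE-labelled cells and at 4.80, 8.94 and 4.40 CPM in control cells. Col4a2 stood at 9.81, 10.9 and 2.11 CPM and 4.10, 9.65 and 4.63 CPM in these groups. In M-CSF alone Col4a1 stood at 3.24, 2.13 and 1.42 CPM in OE-labelled cells and 6.39, 7.58 and 0.773 CPM in control cells, and Col4a2 at 1.79, 1.88 and 1.56 CPM in OE-labelled cells and 4.14, 5.25 and 0.876 CPM in control cells. These genes were the collagens of the set that RANKL raised at day 5 in OE-labelled cells, by 2.02 ± 0.59 and 2.11 ± 0.54 (log2, SE, adjusted p = 0.0074 and 0.00249), and the calls stood whichever library was left out. In control cells at day 5 the libraries with and without RANKL overlapped and no call was made (adjusted p = 0.698 and 0.187), and the difference between the genotypes was not called either (adjusted p = 1 for each). By day 5 under RANKL in OE-labelled cells Col4a1 rose by 2.84 ± 0.62 and Col4a2 by 1.93 ± 0.53 (log2, SE, adjusted p = 0.00184 and 0.00885), the Col4a2 call being lost without number 2 of day 5 (1.57). In the other 3 day comparisons Col4a2 was not called, and Col4a1 was called in control cells in M-CSF alone.

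Col12a1, which decorates type I fibres, was at 29.8, 22.1 and 3.14 CPM at day 5 under RANKL in OE-labelled cells against 7.18, 6.49 and 0.862 CPM in control cells, and rose by 5.19 ± 1.10 in OE-labelled cells by day 5 (log2, SE, adjusted p = 0.00133). The type VI chains form microfibrils around cells. Col6a1 stood at 6.83, 3.84 and 0.743 CPM in OE-labelled cells and 1.58, 3.15 and 0.907 CPM in control cells at day 5 under RANKL, and Col6a3 at 12.7, 18.4 and 1.57 CPM in OE-labelled cells and 3.22, 12.04 and 1.86 CPM in control cells. Col6a2, the third chain, lay at 0.600 to 4.13 CPM in OE-labelled cells and 0.907 to 2.35 CPM in control cells. Col8a1, a short-chain collagen of vessel walls, stood at 7.84, 3.37 and 0.286 CPM in OE-labelled cells and 1.40, 1.41 and 0.771 CPM in control cells. Number 3 was the lowest library of each of these groups. At day 3 these 4 genes were at 0.140 to 1.55 CPM (Col12a1), 0.0846 to 2.32 CPM (Col6a1), 0.216 to 3.61 CPM (Col6a3) and 0 to 0.517 CPM (Col8a1). By day 5 under RANKL these 4 genes and Col6a2 were called higher in OE-labelled cells (5 of 5, beside 17.6% of all genes), and 0 of 5 were in control cells (14.1%), a contrast between genotypes that was not tested. The OE-labelled calls of Col6a1, Col6a3 and Col8a1 were lost in 3, 5 and 3 of the 6 fits that left out 1 library (log2 fold changes of 2.42 to 3.85).

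Col18a1, the basement membrane collagen from which endostatin is cut, had a pattern of its own. At day 5 under RANKL it stood at 85.5, 119.6 and 143 CPM in OE-labelled cells and 193, 174 and 148 CPM in control cells, and in M-CSF alone at 137, 212 and 359 CPM in OE-labelled cells and 424, 411 and 376 CPM in control cells. At day 3 it stood at 33.1, 38.3 and 62.2 CPM in OE-labelled cells and 61.5, 57.7 and 72.6 CPM in control cells with RANKL and at 37.3, 83.3 and 94.9 CPM in OE-labelled cells and 169.7, 117 and 85.7 CPM in control cells without. Every library thus held it, and each library of day 5 held more than each of day 3 in the same medium and genotype. At day 5 each control library with RANKL held less than each without, while in OE-labelled cells the groups overlapped, the highest library with RANKL (number 3) being above the lowest without (number 1). The rise by day 5 was called in all 4 comparisons, with log2 fold changes of 1.38 and 1.43 under RANKL and 1.72 and 1.70 in M-CSF alone, first in OE-labelled cells and then in controls, and the calls held whichever library was left out. The log2 fold change with RANKL at day 5 was -1.02 ± 0.34 in OE-labelled cells and -1.23 ± 0.34 in control cells (SE, adjusted p = 0.0152 and 0.00476). The control call stood whichever library was left out. The OE-labelled call was lost without number 1 of the RANKL group (-0.84), without number 3 of the M-CSF group (-0.62) and without the 4 OE-labelled (-0.78) or all 8 (-0.79) libraries of number 3, besides without a filter on low counts (-0.98). At day 3 Col18a1 was also called lower with RANKL in control cells, with a log2 fold change of -0.96 ± 0.34 (SE, adjusted p = 0.0201), and this call was lost in 3 of the 6 fits that left out 1 library, those without number 1 of the M-CSF group or numbers 1 or 2 of the RANKL group (-0.67 to -0.94).

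Of the collagen chaperone and crosslinking genes, Serpinh1, the chaperone of procollagen, stood at 31.1, 24.3 and 2.40 CPM in OE-labelled cells and 7.78, 11.998 and 2.99 CPM in control cells at day 5 under RANKL, and at 0.403 to 5.04 CPM at day 3. Loxl2, a lysyl oxidase active on basement membrane collagen, reached 13.9, 6.02 and 0.686 CPM in OE-labelled cells and 2.42, 2.40 and 1.32 CPM in control cells on that day. Loxl1, the lysyl oxidase tied to elastic fibres, reached 0.371 to 4.27 CPM in OE-labelled cells and 0.272 to 2.26 CPM in control cells. These genes followed the collagens, with number 3 the lowest library in each day 5 group.

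Lox, the lysyl oxidase that starts the crosslinking of collagen and elastin, was the exception. At day 3 with RANKL it stood at 117, 111 and 67.9 CPM in OE-labelled cells and 85.1, 67.6 and 52.1 CPM in control cells, and without RANKL at 1.81, 0.796 and 0.562 CPM in OE-labelled cells and 0.513, 1.03 and 0.202 CPM in control cells. At day 5 with RANKL it stood at 59.8, 39.7 and 20.5 CPM in OE-labelled cells and 18.1, 21.4 and 18.7 CPM in control cells, and without at 8.71, 9.85 and 0.851 CPM in OE-labelled cells and 10.3, 8.67 and 0.979 CPM in control cells. Every RANKL library, number 3 included, exceeded every library of the same day without RANKL. The RANKL effect at day 3 was 6.53 ± 0.78 in OE-labelled cells and 6.90 ± 0.84 in control cells (log2, SE, adjusted p = 4.21e-07 and 5.32e-07). At day 5 it was 2.62 ± 0.63 and 1.54 ± 0.62 (adjusted p = 0.00154 and 0.046), and the control value lost its call without any of the 3 RANKL libraries or numbers 2 or 3 of M-CSF alone (log2 fold changes of 0.99 to 1.74). The RANKL effect was smaller at day 5, and its difference, day 5 minus day 3, was -3.91 ± 0.96 in OE-labelled cells and -5.36 ± 1.04 in control cells (log2, SE, test of the difference, adjusted p = 0.00799 and 0.00138).

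**Figure D4:**
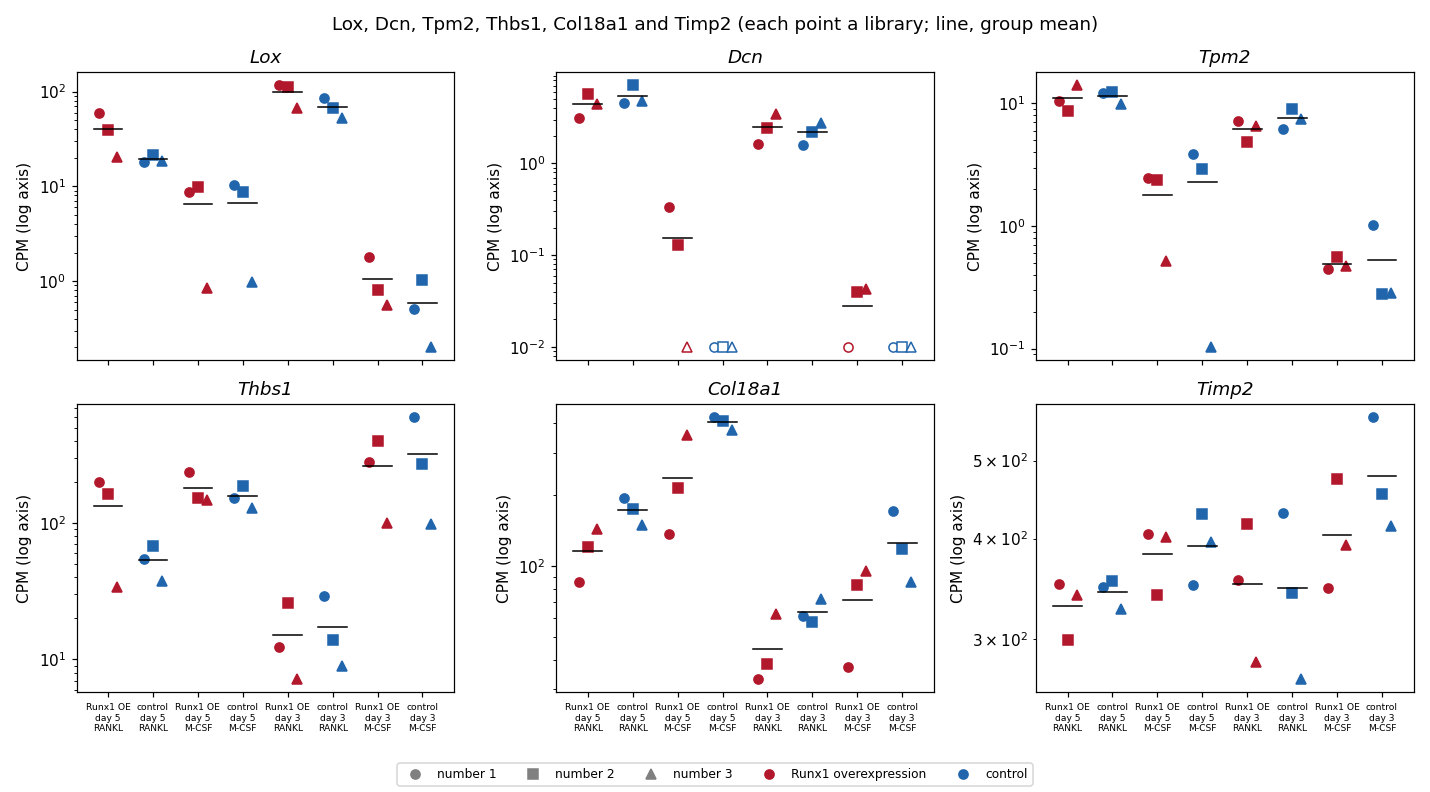
Levels in CPM (log axes) of Lox, Dcn, Tpm2, Thbs1, Col18a1 and Timp2 in every library, with colours, symbols and lines as for the collagens; open symbols at 0.01 are libraries with 0 counts. For Lox, Dcn and Tpm2 the RANKL libraries of each day lie above those of M-CSF alone, as with Dcn at 1.60 to 3.43 CPM and 0 to 0.0432 CPM at day 3.

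Among proteoglycans and glycoproteins, Dcn, which encodes decorin, a small proteoglycan that binds collagen fibres, was also tied to RANKL. With RANKL it stood at 3.12, 5.76 and 4.43 CPM in OE-labelled cells and 4.52, 7.15 and 4.76 CPM in control cells at day 5, and at 1.64, 2.41 and 3.43 CPM in OE-labelled cells and 1.60, 2.22 and 2.73 CPM in control cells at day 3. Without RANKL the control libraries had 0 counts on both days, and the OE-labelled libraries held 0 to 0.339 CPM at day 5 and 0 to 0.0432 CPM at day 3. Against 3 counts over the group, Dcn was at least 106-fold higher with RANKL at day 5 in control cells and at least 49.3-fold higher at day 3. In OE-labelled cells the log2 fold change was 4.80 ± 0.57 at day 5 (SE, adjusted p = 1.98e-06). Lum, the gene of lumican, a proteoglycan of the same family, had at most 5 counts in a library, or 0 to 0.181 CPM.

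Bgn, encoding biglycan, another proteoglycan of that family, followed the collagens instead. It stood at 30.4, 27.3 and 2.91 CPM in OE-labelled cells and 7.04, 13.97 and 3.86 CPM in control cells at day 5 under RANKL, and at 14.7, 12.7 and 1.98 CPM in OE-labelled cells and 13.3, 14.4 and 1.49 CPM in control cells in M-CSF alone. Fbn1, the main protein of extracellular microfibrils, stood at 9.95, 10.7 and 1.20 CPM in OE-labelled cells and 1.91, 6.40 and 0.862 CPM in control cells with RANKL at day 5. At day 3 the libraries held 0.389 to 4.99 CPM of Bgn and 0.0503 to 1.65 CPM of Fbn1. Of Fbn1's exonic bases, 20.1% overlap Gm9913 on the opposite strand.

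Fn1, which encodes fibronectin, a glycoprotein that integrins bind, was mixed between these patterns. With RANKL at day 5 it stood at 203, 134 and 18.8 CPM in OE-labelled cells and 41.5, 52.9 and 18.8 CPM in control cells. In M-CSF alone at day 5 it stood at 82.9, 85.8 and 119 CPM in OE-labelled cells and 132, 117 and 59.7 CPM in control cells, so that number 3 was the lowest library of its group in controls and the highest in OE-labelled cells. Day 3 libraries held 2.71 to 14.6 CPM with RANKL and 4.82 to 26.8 CPM without. Fn1 was called higher at day 5 in all 4 comparisons, most in OE-labelled cells under RANKL, by 4.52 ± 0.79 (log2, SE, adjusted p = 0.000267), and least in control cells under RANKL, by 2.11 ± 0.72 (adjusted p = 0.0362). The last call was lost in 4 of the 6 fits that left out 1 library (1.70 to 2.09), those without numbers 1 or 3 of day 3 or numbers 1 or 2 of day 5. It was also lost in a fit that blocked on the library number (adjusted p = 0.0508). In M-CSF alone 2 of the 6 such fits lost it in OE-labelled cells and 1 of the 6 did in control cells.

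Of the 8 matricellular genes, 8 were called higher at day 5 under RANKL in OE-labelled cells (17.6% of all genes), and 2, Ctgf and Cyr61, were in control cells (14.1%). Of the OE-labelled calls, that of Igfbp7 was lost in 5 of the 6 fits that left out 1 library (2.30 to 3.54 on the log2 scale) and with the library number as a block, that of Thbs2 in 4 (2.38 to 3.64) and that of Tnc in 2. Sparc, a collagen-binding glycoprotein abundant in bone, stood at 57.8, 43.8 and 3.71 CPM in OE-labelled cells and 13.05, 19.4 and 6.62 CPM in control cells at day 5 under RANKL, and at 18.3, 20.6 and 2.79 CPM in OE-labelled cells and 25.9, 19.6 and 2.01 CPM in control cells in M-CSF alone. Postn, encoding periostin of periosteum and ligaments, stood at 32.8, 11.1 and 3.03 CPM in OE-labelled cells and 6.90, 3.20 and 2.50 CPM in control cells with RANKL. Tnc, encoding tenascin C, a protein of remodelling matrix, stood at 43.8, 29.2 and 4.0003 CPM in OE-labelled cells and 11.3, 14.7 and 3.40 CPM in control cells. For all 3 genes numbers 1 and 2 of each genotype were above number 3, and the day 3 libraries held 0.677 to 5.11 CPM of Sparc, 0.216 to 1.14 CPM of Postn and 0.119 to 6.19 CPM of Tnc.

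Ctgf and Cyr61 encode CCN proteins and are standard targets of the YAP and TEAD regulators. Ctgf stood at 34.8, 21.4 and 2.63 CPM in OE-labelled cells and 8.85, 8.23 and 3.81 CPM in control cells at day 5 under RANKL, and at 7.31, 7.93 and 1.18 CPM in OE-labelled cells and 10.3, 9.37 and 1.08 CPM in control cells in M-CSF alone. Cyr61 stood at 15.1, 12.4 and 3.63 CPM in OE-labelled cells and 6.76, 6.54 and 3.95 CPM in control cells with RANKL and at 3.05, 2.64 and 0.992 CPM in OE-labelled cells and 4.89, 3.41 and 0.361 CPM in control cells without. In these 2 genes even number 3 under RANKL was above the day 3 libraries, which held 0.0503 to 1.01 CPM of Ctgf and 0 to 0.762 CPM of Cyr61. Their rises by day 5 under RANKL were 6.08 ± 1.02 and 4.59 ± 0.84 in OE-labelled cells and 3.63 ± 0.92 and 3.60 ± 0.83 in control cells (log2, SE, adjusted p = 0.000176, 0.000399, 0.00695 and 0.00342). Of the exonic bases of Ctgf, 23.2% overlap a gene on the opposite strand, and whether reads were counted by strand is a point the sources used here do not give.

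Thbs1 and Thbs2 encode thrombospondins, which activate latent TGF-beta (Thbs1) and restrain vessel growth. Thbs1 stood at 12.3, 26.05 and 7.15 CPM with RANKL at day 3 in OE-labelled cells and 29.2, 13.9 and 8.96 CPM in control cells, and without RANKL at 281, 397 and 101 CPM in OE-labelled cells and 594, 269 and 98.9 CPM in control cells. At day 5 it stood at 200.3, 162 and 33.97 CPM in OE-labelled cells and 54.9, 68.3 and 37.6 CPM in control cells with RANKL and 236, 153 and 148 CPM in OE-labelled cells and 154, 188 and 128 CPM in control cells without. The libraries in M-CSF alone thus held it at both days, and RANKL libraries held little of it at day 3. Which cells it came from was not tested. The RANKL effect at day 3 was -4.11 ± 0.72 and -4.20 ± 0.72 (log2, SE, adjusted p = 5.59e-05 and 4.41e-05) in OE-labelled cells and control cells. In OE-labelled cells it was less negative at day 5 by 3.67 ± 0.93 (log2, SE, test of the difference, adjusted p = 0.00994), and in control cells by 2.65 ± 0.92, which was not called (adjusted p = 0.0598). Thbs2 reached 16.2, 6.23 and 1.0001 CPM in OE-labelled cells and 3.36, 3.76 and 2.27 CPM in control cells with RANKL at day 5, and Igfbp7, a secreted protein that binds insulin-like growth factors, reached 3.71, 4.31 and 0.200 CPM in OE-labelled cells and 1.12, 2.02 and 0.499 CPM in control cells.

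The tissue inhibitors of metalloproteinases split. Timp2 was the steadiest member, at 281 to 474 CPM over the 12 OE-labelled libraries and 267 to 566 CPM over the 12 control libraries. It was lower with RANKL at day 3 in control cells, with a log2 fold change of -0.46 (adjusted p = 0.0186), with overlapping groups of 431, 343 and 267 CPM with RANKL and 566, 454 and 414 CPM without, a call lost without number 3 of the RANKL group (-0.30) or number 1 of the M-CSF group (-0.33). Timp1 stood at 11.5, 8.04 and 1.46 CPM in OE-labelled cells and 3.36, 2.49 and 1.41 CPM in control cells at day 5 under RANKL, and Timp3, which binds to the matrix, at 9.81, 3.89 and 0.686 CPM in OE-labelled cells and 1.68, 1.60 and 0.771 CPM in control cells. Both had number 3 as the lowest library of each day 5 group. Of Timp3's exonic bases, 21.3% overlap Syn3 on the opposite strand.

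Of the contractile and pericyte genes, Acta2, the actin of smooth muscle cells and myofibroblasts, stood at 64.8, 46.6 and 5.57 CPM in OE-labelled cells and 14.96, 19.5 and 6.26 CPM in control cells at day 5 under RANKL, and at 17.8, 24.5 and 4.96 CPM in OE-labelled cells and 28.7, 22.7 and 4.54 CPM in control cells in M-CSF alone. At day 3 it stood at 2.07, 1.66 and 1.18 CPM in OE-labelled cells and 1.52, 2.68 and 1.25 CPM in control cells with RANKL and 8.33, 6.05 and 3.54 CPM in OE-labelled cells and 5.55, 6.25 and 5.88 CPM in control cells without. So at day 3 each library with RANKL was below each library without. The main fit did not call this difference (adjusted p = 0.0514 and 0.0733 in OE-labelled cells and control cells). Acta2 was called lower in both genotypes by the fit that blocked on the library number. The same calls were made without the 4 OE-labelled libraries of number 3, and without all 8 of number 3, a choice made after the values were seen. Acta2 rose by day 5 under RANKL in OE-labelled cells by 4.56 ± 0.82 and in control cells by 2.91 ± 0.79 (log2, SE, adjusted p = 0.000336 and 0.0106), the control call being lost without number 1 of day 3 (2.77). The difference of the RANKL effect between days was 3.17 ± 1.05 in OE-labelled cells (log2, SE, adjusted p = 0.0464) and was not called in 9 of the 12 fits that left out 1 library, with values of 2.58 to 3.37. These were the fits without any of the day 3 RANKL libraries, numbers 1 or 2 of day 5 RANKL, numbers 1 or 2 of day 3 M-CSF or numbers 1 or 3 of day 5 M-CSF, all OE-labelled.

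Cald1, encoding caldesmon, which binds actin and tropomyosin, stood at 24.8, 17.8 and 1.26 CPM with RANKL at day 5 in OE-labelled cells and 5.27, 6.68 and 2.45 CPM in control cells. Myl9, the regulatory light chain of smooth muscle myosin, lay at 0.429 to 6.33 CPM in OE-labelled cells and 0.499 to 1.35 CPM in control cells, and Pdgfrb, the receptor that marks pericytes, at 0.257 to 2.44 CPM in OE-labelled cells and 0.681 to 1.36 CPM in control cells. These 3 genes were lowest in number 3 of each day 5 group. Tagln, the gene of transgelin and a standard companion of Acta2 in smooth muscle, was not called for day in any comparison, at 0.206 to 0.921 CPM at day 5 and 0.161 to 0.955 CPM at day 3. Of Tagln's exonic bases 67.9% overlap a predicted gene, Gm48529, on the opposite strand, so reads of the pair may have been split or left out.

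Tpm2, the beta chain of tropomyosin, belonged with Lox and Dcn. With RANKL it stood at 10.4, 8.67 and 14.1 CPM in OE-labelled cells and 12.2, 12.4 and 9.80 CPM in control cells at day 5, and at 7.15, 4.88 and 6.52 CPM in OE-labelled cells and 6.16, 9.03 and 7.52 CPM in control cells at day 3. Without RANKL it stood at 2.47, 2.39 and 0.520 CPM in OE-labelled cells and 3.89, 2.93 and 0.103 CPM in control cells at day 5 and at 0.443 to 0.557 CPM in OE-labelled cells and 0.280 to 1.03 CPM in control cells at day 3. All RANKL libraries exceeded all others. The effect of RANKL was 3.64 ± 0.67 and 3.84 ± 0.67 at day 3 (log2, SE, adjusted p = 9.92e-05 and 5.67e-05) and 2.62 ± 0.59 and 2.31 ± 0.58 at day 5 (adjusted p = 0.00083 and 0.00232), in OE-labelled cells and control cells. Without RANKL, number 3 was again the lowest of its group at day 5.

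The library number was described across the day 5 groups, a pattern noticed in the values. Number 3 was the lowest library in each of the 4 day 5 groups for 30 of the 38 tested members, against 2.59% of all genes tested. Numbers 1 and 2 were lowest in all 4 groups for 0 members, against 0.971% and 0.705% of all genes. At day 3, number 3 was lowest in all 4 groups for 6 members, Col1a2, Col5a2, Col6a3, Lox, Bgn and Thbs1, against 8.98% of all genes. The 8 tested members without the day 5 order were Col4a2, Col18a1, Lox, Fn1, Dcn, Timp2, Tagln and Tpm2. The 30 were chosen by this order, so an excess of numbers 1 and 2 over number 3 was fixed in advance, and only its size is given. The mean of numbers 1 and 2 exceeded number 3 at day 5 by a median of 9.99-fold and 2.53-fold with RANKL in OE-labelled cells and control cells. In M-CSF alone the median was 6.16-fold in OE-labelled cells and 12.1-fold in controls, where only the 26 genes with counts in number 3 could be used. In OE-labelled groups number 3 was also the library low in Xist, and in control groups, which had the same order, it was not.

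The RANKL response was tested against M-CSF alone for each day in each genotype. At day 5, 7 members rose and 1 fell in OE-labelled cells, against 27.5% and 24.9% of all genes, and 3 rose and 1 fell in control cells, against 26.4% and 23.1%. At day 3, 4 rose and 1 fell in OE-labelled cells (29.1% and 30.1% of all genes), and 5 rose and 3 fell in control cells (29.5% and 29.7%). In either direction the calls were 8 and 4 at day 5 (52.4% and 49.4% of all genes) and 5 and 8 at day 3 (59.2% and 59.1%), in OE-labelled and control cells. Lox, Dcn and Tpm2 rose in all 4 comparisons. The genes called in only some of them were Col4a1, Col4a2, Ctgf and Cyr61, higher at day 5 in OE-labelled cells, Timp3, higher at day 3 in the same genotype, Col6a1 and Col6a2, higher at day 3 in controls, and the falls of Thbs1, Col18a1 and Timp2 given above. With 1 library left out, the call of Ctgf was lost in 5 of 6 fits, that of Cyr61 in 2, that of Timp3 in 3, that of Col6a1 in 5 and that of Col6a2 in 3.

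Same-numbered libraries deviated together for the comparison at day 5 in OE-labelled cells, and a fit that blocked on the number there called 15 members higher and 1 lower in place of 7 and 1, against 28.2% and 25.4% of all genes. The members added were Col5a2, Col6a2, Col8a1, Col12a1, Bgn, Thbs2, Tnc and Acta2, with adjusted p from 0.00938 to 0.0494 under the block. In that genotype the count of 8 calls became 5 without number 1 of the RANKL group, 5 without number 3 of the M-CSF group and 13 without number 3 of the RANKL group. Without the 8 libraries of number 3 the comparison called 22 higher and 0 lower, against 23.5% and 21.9% of all genes. In control cells at day 3 the 8 calls became 4 without number 1 of the M-CSF group and 5 without number 2 of the RANKL group. In OE-labelled cells at day 3 leaving out number 3 throughout gave 10 higher and 4 lower. Over all genes that fit called 26.4% higher and 27.4% lower, so that the members were no more often called than all genes.

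Between days, the RANKL response of 2 members was higher at day 5 and that of 1 lower in OE-labelled cells, Thbs1 and Acta2 against Lox (8.09% and 7.13% of all genes). In control cells it was 0 and 1, Lox (7.26% and 6.73%). These totals of 3 and 1 became 6 without number 3 of the OE-labelled day 5 RANKL group, and 2 without number 1 of the control day 3 RANKL group or number 3 of the control M-CSF group of either day. Between genotypes no response differed at either day, for members or for all genes, by edgeR or DESeq2 (0%), and at an unadjusted p under 0.05 edgeR had 3 members among 481 genes at day 5 and 0 among 242 at day 3.

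The genotypes were compared within each medium and day. No member and no gene was called in any of the 4 comparisons by edgeR (0% of all genes), and DESeq2 called 0 genes at day 5 with RANKL, 17 at day 5 without, 1 at day 3 with RANKL and 3 at day 3 without, 0 of them members. At an unadjusted p under 0.05 edgeR had 6 members among 457 genes at day 5 and 1 among 258 at day 3 with RANKL, and 2 among 948 at day 5 and 1 among 530 at day 3 in M-CSF alone. At day 5 with RANKL 34 of the 38 members had a positive log2 fold change, with a median of 1.32 beside 0.00 over all genes. In Col1a1 and Acta2, numbers 1 and 2 of the OE-labelled group held more than any control library and number 3 held less than any. For Col1a1 the difference was 1.70 ± 0.92, with a 95% interval of -0.22 to 3.63, and for Acta2 1.51 ± 0.68, with an interval of 0.09 to 2.94 (log2, SE, adjusted p = 1 for each).

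Without the 8 libraries of number 3, leaving 2 per group, 6 members were called higher at day 5 with RANKL in OE-labelled cells and 0 lower, against 0.184% and 0.0593% of all genes. They were Acta2, Col5a1, Col5a2, Col12a1, Ctgf and Cald1, with log2 fold changes of 1.70 to 1.94 and adjusted p of 0.0155 to 0.0408. This selection was made after the values were seen, and it called 0 members in the other 3 genotype comparisons. Without only the 4 number 3 OE-labelled libraries the genotype calls stayed at 0 members. Col18a1 was lower in OE-labelled cells in each comparison, with log2 fold changes of -0.79 ± 0.34 and -0.52 ± 0.34 at day 3 and -0.77 ± 0.33 and -0.57 ± 0.34 at day 5 without and with RANKL (SE), none of them called (adjusted p from 0.752 to 1).

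Lists of genes around the members were read beside them. Of 25 genes that process collagen, 23 were tested. By day 5 under RANKL in OE-labelled cells 8 rose, above the share of all genes (17.6%), and 2 fell, below it (15.6%). In controls 2 rose and 2 fell, no more than the shares of all genes (14.1% and 12.7%). The prolyl hydroxylase P4ha1, whose product lets the triple helix form, rose by 1.03 in OE-labelled and 1.11 in control cells (log2, adjusted p = 0.000997 and 0.000712), and the lysyl hydroxylase Plod1 by 0.39 and 0.32. P4hb, the shared subunit of prolyl hydroxylase, was at 719 to 1029.7 CPM in every library. Of the 23, 3, Colgalt1, Fkbp10 and Bmp1, were lowest in number 3 of all day 5 groups, against 2.59% of all genes. Fkbp10, the prolyl isomerase tied to type I collagen crosslinking, stood at 6.56, 4.46 and 0.429 CPM in OE-labelled cells and 0.746, 1.65 and 0.181 CPM in controls at day 5 with RANKL. It was chosen after its values were seen.

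Other matrix genes gave several that followed RANKL as Lox did. Of 37 genes 20 were tested, and at day 3 RANKL raised 8 and lowered 7 in OE-labelled cells (29.1% and 30.1% of all genes) and the same numbers in controls (29.5% and 29.7%), not far from those shares. Col27a1, a fibrillar collagen known from cartilage, stood at 71.5, 69.3 and 85.9 CPM with RANKL at day 3 in OE-labelled cells and 83.5, 88.7 and 73.4 CPM in controls, and without RANKL at 0 to 0.279 CPM in OE-labelled cells and 0.140 to 0.233 CPM in control cells. Col15a1, a basement membrane zone collagen, stood at 39.2, 32.9 and 34.1 CPM in OE-labelled cells and 30.2, 37.01 and 33.97 CPM in control cells with RANKL and 0.778 to 2.07 CPM in OE-labelled cells and 0.653 to 1.03 CPM in control cells without. In both genes all RANKL libraries, number 3 included, were far above the others, and Lama3, a laminin chain, was lower, with log2 fold changes of -5.27 in OE-labelled and -4.79 in control cells (adjusted p = 9.69e-11 and 5.41e-11).

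Of 21 genes of the TGF-beta pathway, which drives matrix genes in fibroblasts, 20 were tested, and 6 rose and 1 fell by day 5 under RANKL in OE-labelled cells (17.6% and 15.6% of all genes), against 3 and 1 in controls (14.1% and 12.7%), where 3 of 20 lies near the share of all genes. Tgfbr1, the signalling receptor, stood at 508 to 1161 CPM with RANKL and 110.4 to 178 CPM without, and its ligand gene Tgfb1 at 212 to 438 CPM in all libraries. Of 28 genes of the actin cytoskeleton and of the SRF and YAP pathways, 25 were tested, and 11 rose and 2 fell by day 5 under RANKL in OE-labelled cells, against 6 and 2 in controls, beside the same shares of all genes. Tead1, the partner of YAP, was at 4.86, 3.53 and 0.743 CPM in the day 5 RANKL OE-labelled libraries and 1.17, 1.18 and 1.04 CPM in control ones, whereas Srf stood at 30.7 to 57.6 CPM in all libraries.

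Among 15 genes of collagen uptake and breakdown, all tested, RANKL at day 5 raised 4 and lowered 8 in OE-labelled cells (27.5% and 24.9% of all genes) and raised 4 and lowered 6 in controls (26.4% and 23.1%), so that the genes raised were near the share of all genes. Ctsk, the collagen-degrading protease of osteoclasts, rose by 12.21 in OE-labelled and 12.59 in control cells, and Mmp14, a membrane-bound collagenase, by 6.77 and 6.30 (log2, adjusted p = 3.76e-13 and 7.48e-13). Mrc1, an endocytic collagen receptor of macrophages, fell, with log2 fold changes of -4.12 and -4.52 (adjusted p = 1.04e-09 and 3.24e-10). Mrc2, the related receptor of fibroblasts, was lowest in number 3 of all day 5 groups. It was the only 1 of the 15 with that order, against 2.59% of all genes.

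Markers of stromal cells were read in the same libraries. All 20 fibroblast and stromal markers had at least 1 count somewhere, and 12 were under 1 CPM in every library. Dpt and Tcf21 had 1 count in all, Twist2 had 3, and Pdgfra, a receptor that defines fibroblasts, was at 0.367, 0.259 and 0 CPM at day 5 under RANKL in OE-labelled cells, 0, 0.0941 and 0.0907 CPM in controls, and at most 0.465 CPM in any library. The list's summed level at day 5 was 41.8 to 63.7 CPM with RANKL in OE-labelled cells and 34.6 to 43.1 CPM in control cells, and 46.5 to 62.7 CPM without RANKL in OE-labelled cells and 36.95 to 72.5 CPM in control cells. At day 3 it was 16.1 to 25.7 CPM with RANKL in OE-labelled cells and 18.1 to 29.7 CPM in control cells, and 25.1 to 34.3 and 23.6 to 32.3 CPM without. Most of it came from Kitl and Pdpn, at 11.97 to 48.1 and 10.5 to 25.03 CPM at day 5, neither of which was lowest in number 3 of all groups.

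Some stromal markers shared the day 5 order in part. Prrx1, a mesenchymal transcription factor, stood at 2.29, 3.22 and 0.0571 CPM in OE-labelled cells and 0.559, 2.12 and 0.181 CPM in controls at day 5 with RANKL, and at 1.26, 1.45 and 0.189 CPM in OE-labelled cells and 0.499, 0.813 and 0.0515 CPM in control cells without. Cdh11, the cadherin of fibroblasts and osteoblasts, stood at 3.44, 1.45 and 0.343 CPM in OE-labelled cells and 0.699, 0.423 and 0.499 CPM in control cells with RANKL and 2.27, 1.11 and 0.189 CPM in OE-labelled cells and 2.54, 1.46 and 0.464 CPM in control cells without. Cxcl12, the chemokine of marrow stromal cells, stood at 5.09, 1.45 and 0.0857 CPM in OE-labelled cells and 0.466, 0.282 and 0.408 CPM in control cells with RANKL and 1.94, 1.75 and 0.236 CPM in OE-labelled cells and 1.85, 0.433 and 0.155 CPM in control cells without. Of the 9 tested genes of the list, 2, Prrx1 and Fstl1, were lowest in number 3 of all 4 day 5 groups, against 2.59% of all genes. By day 5 under RANKL in OE-labelled cells 5 of the 9 rose (17.6% of all genes), Cxcl12 by 4.14 and Cdh11 by 3.01 (log2, adjusted p = 0.0121 and 0.0149). In control cells under RANKL 1 of the 9 rose (14.1%), and in M-CSF alone 2 rose in OE-labelled cells (7.17%) and 4 in control cells (12.2%). The part of stromal cells in the members' levels was not tested.

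**Figure D5:**
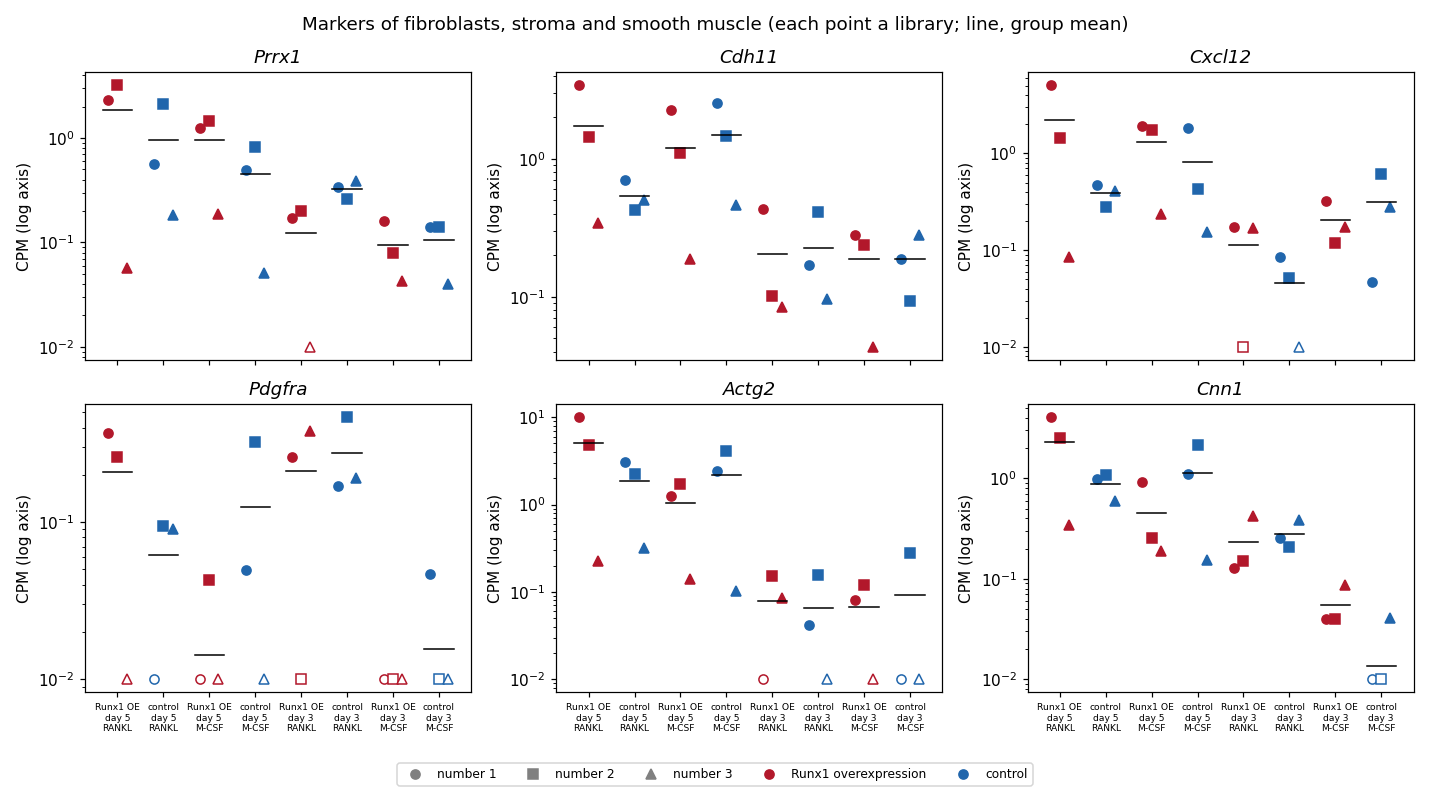
Levels in CPM (log axes) of Prrx1, Cdh11, Cxcl12, Pdgfra, Actg2 and Cnn1 in every library, with colours, symbols and lines as for the collagens; open symbols at 0.01 are libraries with 0 counts. Actg2 and Prrx1 show the day 5 triangles below the circles and squares, and Pdgfra stays under 0.5 CPM.

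Of 13 smooth muscle and pericyte markers outside the set, Kcnj8, a pericyte channel, had 0 counts in all libraries and 7 were under 1 CPM in every library. Actg2, the enteric smooth muscle actin, stood at 9.95, 4.83 and 0.229 CPM in OE-labelled cells and 3.03, 2.26 and 0.318 CPM in controls at day 5 with RANKL, and at 0 to 0.280 CPM over the libraries of day 3. Cnn1, a smooth muscle calponin, stood at 4.04, 2.49 and 0.343 CPM in OE-labelled cells and 0.979, 1.08 and 0.590 CPM in control cells. Actg2, Cnn1 and Lmod1 were lowest in number 3 of all day 5 groups, 3 of the 6 tested, against 2.59% of all genes. The summed level of the list at day 5 was 6.54 to 26.6 CPM with RANKL in OE-labelled cells and 7.94 to 12.6 CPM in control cells, and 4.91 to 6.97 CPM without RANKL in OE-labelled cells and 4.02 to 13.4 CPM in control cells. The day 3 sum was 3.42 to 4.87 CPM with RANKL in OE-labelled cells and 4.22 to 4.49 CPM in control cells, and 9.90 to 13.3 and 11.1 to 13.1 CPM without. Smtn, encoding smoothelin of contractile smooth muscle, made up most of the day 3 sum without RANKL, at 9.21, 9.23 and 10.9 CPM in OE-labelled cells and 9.51, 10.6 and 10.4 CPM in control cells. It fell by day 5 in M-CSF alone, with log2 fold changes of -2.62 in OE-labelled and -2.63 in control cells (adjusted p = 1.46e-06 and 1.19e-06). Without RANKL, Actg2 stood at 0.142 to 1.71 CPM at day 5 and 0 to 0.119 CPM at day 3 in OE-labelled cells and at 0.103 to 4.06 and 0 to 0.280 CPM in control cells. Cnn1 stood at 0.189 to 0.919 and 0.0398 to 0.0864 CPM in OE-labelled cells and at 0.155 to 2.17 and 0 to 0.0403 CPM in control cells. The part of these cells in the members' levels was not tested.

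Of 11 osteoblast markers, Bglap2, Dmp1, Mepe and Sost, which define osteoblasts and osteocytes, had 0 counts in all libraries and 9 were under 1 CPM in every library. The list's sum at day 5 was 8.74 to 9.55 CPM with RANKL in OE-labelled cells and 6.85 to 8.67 CPM in control cells, and 1.60 to 3.21 CPM without RANKL in OE-labelled cells and 1.85 to 2.47 CPM in control cells. At day 3 it was 7.89 to 9.52 CPM with RANKL in OE-labelled cells and 8.52 to 11.6 CPM in control cells, and 3.46 to 3.78 and 3.64 to 5.27 CPM without. Runx2, a transcription factor of osteoblasts, was the highest gene of the list, at 7.89 to 8.72 CPM in OE-labelled cells and 6.01 to 7.99 CPM in control cells at day 5 with RANKL. 

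Of 11 endothelial markers 0 were at 0 throughout and 5 were under 1 CPM in every library, and the sum at day 5 was 26.001 to 31.9 CPM with RANKL in OE-labelled cells and 23.4 to 29.7 CPM in control cells, and 21.5 to 28.1 CPM without RANKL in OE-labelled cells and 21.3 to 29.6 CPM in control cells. The day 3 sum was 25.8 to 39.2 CPM with RANKL in OE-labelled cells and 25.6 to 36.2 CPM in control cells, and 20.9 to 35.5 and 19.5 to 31.6 CPM without. Vwf and Kdr were the highest genes of that list. Lep of 10 adipocyte and chondrocyte markers, Gp1bb of 8 megakaryocyte markers, and Cd3e of 10 neutrophil and lymphoid markers had 0 counts in all libraries. The tested markers were 3 for osteoblasts, 6 endothelial, 4 for adipocytes or chondrocytes and 5 for megakaryocytes. Those of neutrophils or lymphoid cells were 7, of macrophages 10 and of osteoclasts 9. Of these, 0 were lowest in number 3 of all 4 day 5 groups. The share over all genes was 2.59%, and 0 among so few genes lies near it. The 9 osteoclast markers all rose with RANKL in each of the 4 comparisons, and 8 or 9 of the 10 macrophage markers fell, beside the shares of all genes given for those comparisons. The part of these cell types in the members' levels was not tested.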

How the data were processed

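RNA-seq was made with a TruSeq kit from 250 ng of total RNA per library, per the labels' protocols. The authors deposited whole-number counts per gene for 24 libraries in 8 groups. Tools named by the submitters' processing notes are STAR and DESeq2, with GRCm39 as build; the sources used here give no versions, counting settings or use of strand. Of 54495 identifiers found in GENCODE M21 (GRCm38), 98.3% had the same position, so positions are those of the table. All value columns were matched by title, leaving 0 unmatched. Genes passing filterByExpr (27.6%) were fitted with edgeR 4.0.16 (R 4.3.3, quasi-likelihood, TMM) over all 24 libraries with a mean per group, with calls at an adjusted p (Benjamini-Hochberg) under 0.05. CPM uses the TMM-scaled library size. The script was tested on simulated data. Alternatives were DESeq2 1.42.0, its size factors, no filter, a block on the library number and leaving out libraries. Numbers were taken to pair libraries where the deviations of every same-numbered pair correlated over a limit of 0.1. Only RANKL at day 5 in OE-labelled cells passed (0.148 to 0.34). RANKL at day 3 fell just short, at 0.079 to 0.281 in OE-labelled cells and 0.092 to 0.288 in control cells. Missing this limit does not show that the numbers were unpaired in the other comparisons, and the main fit has no block. Intervals and lower bounds cover counting error and these libraries only. The 39 members and 14 further lists (223 symbols) were chosen with earlier results of these data known. Members with a mean of at least 1 CPM (33) were described with values, the other 6 by range, and from each list up to 4 genes with the smallest p among those called could be named, besides marker genes at 0 or highest. Genes named for the order of library numbers, and P4hb, Tgfb1 and Srf as levels, were chosen after their values were seen.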

Additional observations from a re-analysis of the deposited data

Results flagged for a closer look

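The response to RANKL differed between days for 3 members. For Lox the RANKL effect was smaller at day 5 than at day 3, by a log2 difference of -3.91 in OE-labelled cells and -5.36 in control cells. For Thbs1 in OE-labelled cells the difference was 3.67, the RANKL effect being less negative at day 5. For Acta2 in the same cells it was 3.17, each RANKL library being lower than each M-CSF library at day 3, and 2 of the 3 RANKL libraries higher than each M-CSF library at day 5. The Acta2 call was lost in 9 of the 12 fits that left out 1 library, and those of Lox and Thbs1 in 0. Each difference is an interaction term of the fit over all genes.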

How the results depend on the processing

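No called member changed direction under the alternatives run. The counts of called members given here are higher and lower together. Without a filter on low counts, which adds genes to the adjustment, they were 5 for RANKL at day 3 in control cells (8 as reported), 3 for day 5 against day 3 in M-CSF alone in OE-labelled cells (20) and 7 in control cells (21), and 5 under RANKL in control cells (8). With the replicate block on library number they were 16 and 12 for RANKL at days 5 and 3 in OE-labelled cells (8 and 5). At day 3 in control cells they were 13 (8). Of all genes, that fit called 28.2% higher and 25.4% lower at day 5 in OE-labelled cells. At day 3 it called 29.8% and 30.4% in OE-labelled cells and 30.2% and 30.0% in control cells. It called 19 members for day 5 against day 3 under RANKL in control cells (8), beside 16.0% and 13.4% of all genes. For the difference of the RANKL response between days it called 5 and 2 in OE-labelled cells and control cells (3 and 1). There it called 8.83% and 8.03% of all genes in OE-labelled cells and 7.87% and 7.5% in control cells. The labels do not say what a number stands for, and outside RANKL at day 5 in OE-labelled cells at least 1 same-numbered pair of each comparison correlated at 0.1 or less. In the data, number 3 of each OE-labelled group was low in Xist, and number 3 was the lowest day 5 library for most members. The block called 0 members between genotypes. DESeq2 gave 8 for RANKL at day 3 in OE-labelled cells (5) and 2 for the difference between days in control cells (1), which was also 2 without the 4 number 3 OE-labelled libraries. Without the 8 libraries of number 3, chosen after seeing the data, the counts were 22 and 14 for RANKL at days 5 and 3 in OE-labelled cells, 32 and 33 for day 5 against day 3 in M-CSF alone in OE-labelled cells and control cells, 25 under RANKL in control cells, 6 between genotypes at day 5 with RANKL (0), and 5 and 4 for the differences between days. Size factors from DESeq2 moved no count by over 1.5 times. The cause of these shifts was not tested.

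With 1 library left out at a time, the counts ranged from 5 to 13 and from 3 to 4 for RANKL at day 5 in OE-labelled cells and control cells, and from 4 to 6 and from 4 to 7 at day 3. For day 5 against day 3 they ranged from 22 to 33 and from 3 to 6 under RANKL, and from 2 to 23 and from 6 to 28 in M-CSF alone. The differences between days ranged from 2 to 6 and from 1 to 2, and genotype comparisons and differences between genotypes stayed at 0. Members at a few counts per library limit the precision of all these values.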
